A study of Mus musculus with 12 samples.

Results

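Matrix metalloproteinases (MMPs), the ADAMTS proteases and the tissue inhibitors of metalloproteinases (TIMPs) are described here in primary mouse chondrocytes that lack the phosphatases Phlpp1, Phlpp2 or both. Members were taken by gene symbol, from families chosen with earlier results of these data known. Every row of the deposited count table named as an Mmp, Adamts, Adamtsl or Timp gene was taken. This gave 51 of the 49315 genes in the table, made up of 23 MMPs, 19 ADAMTS proteases, 5 ADAMTS-like genes and 4 TIMPs. Of these, 37 had enough counts to be tested: 15 MMPs, 15 ADAMTS proteases, 4 ADAMTS-like genes and 3 TIMPs. The 14 left untested were Mmp1a, Mmp1b, Mmp7, Mmp20, Mmp21, Mmp24, Mmp25, Mmp27, Adamts13, Adamts16, Adamts18, Adamts19, Adamtsl2 and Timp4.

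MMPs are zinc-dependent proteases that are made as inactive precursors and that together can cut most proteins of the extracellular matrix. In cartilage the collagenases open the type II collagen fibril, the stromelysins cut proteoglycans and activate other MMPs, and ADAMTS proteases cut aggrecan, versican, cartilage oligomeric matrix protein (COMP) or the propeptides of collagen. TIMPs bind MMPs tightly and block them, and Timp3, which is held in the matrix, also blocks several ADAMTS proteases. Transcripts of these genes do not show how much active enzyme was present, since activation and inhibition act on the proteins.

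The study sequenced RNA in bulk from epiphyseal chondrocytes of mice labelled female and 5 days old, in 4 genotypes with 3 libraries each. The genotypes are WT, Phlpp1 KO (Phlpp1-/-), Phlpp2 KO (Phlpp2-/-) and Phlpp1/2 KO (Phlpp1/2-/-, lacking both). Per the labels' protocols the cells of every genotype were released with collagenase, frozen, thawed and kept overnight on plates in medium with serum before lysis. The strain label was C57BL6 for 8 libraries, C57BL7 for Phlpp2 KO 3, and C57BL8, C57BL9 and C57BL10 for Phlpp1/2 KO 1, 2 and 3. In Phlpp1/2 KO the genotype and these strain labels thus cannot be told apart. From Phlpp2 KO 3 on, the number in the label rises by 1 with each library, and whether the labels name different strains is not known. The labels do not say whether a library held 1 animal or a pool, so p-values measure only the spread between these libraries, which may be technical.

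Library totals ran from 21706337 to 33115345 counts, and levels are given as CPM, counts scaled to the size of the library after normalization between libraries, in which 1 count is worth 0.0295 to 0.0453 CPM. Phlpp1 stood at 35.1 to 44.6 CPM in WT and Phlpp2 KO and at 7.71 to 9.46 CPM in Phlpp1 KO and Phlpp1/2 KO, which fits the labels. Both genes fell in Phlpp1/2 KO against WT (edgeR adjusted p = 3.45e-08 and 2.98e-05), while Phlpp2 in Phlpp2 KO did not pass (log2 fold change -0.52, SE 0.09, edgeR adjusted p = 0.0607). Phlpp2 stood at 22.4 to 28.1 CPM in WT and Phlpp1 KO, 16.8 to 19.4 CPM in Phlpp2 KO and 10.2 to 11.4 CPM in Phlpp1/2 KO. The sum of 8 chondrocyte markers was 26648 to 49328 CPM, while 6 neutrophil markers summed to 0.0986 to 1.65 CPM, 6 macrophage markers to 10.4 to 16.7 CPM and 7 skeletal muscle markers to 4.64 to 61.3 CPM. The osteoblast markers summed to 247 to 667 CPM, of which Col1a1 gave 236 to 648 CPM. Sp7 stood at 8.27 to 23 CPM and Phex at 1.45 to 3.09 CPM, while Bglap, Bglap2 and Dmp1 did not pass 0.3834 CPM. The superficial zone and fibroblast markers summed to 206 to 329 CPM. Of these, Prg4 gave 80.7 to 172.7 CPM and Pdgfra 123 to 152.4 CPM, and no other marker of that list passed 3.304 CPM. Of 6 osteoclast markers, Ocstamp, Dcstamp and Calcr did not pass 0.191 CPM in any library. The others were Ctsk at 98.5 to 125.6 CPM, Acp5 at 1.65 to 4.17 CPM and Atp6v0d2 at 0.383 to 1.57 CPM. Xist stood at 278 to 587 CPM in 10 libraries but at 13.9 CPM in Phlpp1 KO 1 and 3.77 CPM in Phlpp1/2 KO 1, against the female label. These 2 low-Xist libraries were not alike. The Y-linked genes Ddx3y, Eif2s3y, Uty and Kdm5d summed to 109 CPM in Phlpp1/2 KO 1 but to 0 CPM in Phlpp1 KO 1. In no other library did they pass 1.23 CPM. In the comparisons that use the 2 low-Xist libraries no member was called without them. Values from that fit are given where it moved a result or ended a call. In bulk RNA, fewer cells of a type and less RNA per cell cannot be told apart.

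Per kilobase of exon, Timp1, Timp2, Timp3 and 4 MMPs led (the plot of levels per kilobase). Averaged over the 12 libraries, Timp1 was the highest member at 1336 CPM per kb, followed by Mmp3 at 492, Timp3 at 241, Timp2 at 166, Mmp13 at 67.3, Mmp2 at 45.6, Mmp14 at 25.3 and Adamts1 at 13.1 CPM per kb. Adamts1, which cuts versican and aggrecan, was thus the leading ADAMTS protease, while the aggrecanases Adamts5 and Adamts4 stood at 0.939 and 0.229 CPM per kb. Adamts1 alone gave 42.7% to 57.6% of the ADAMTS CPM of a library. Mmp3, Mmp13, Mmp2 and Mmp14 together gave 91.3% to 96.5% of the MMP CPM. At the other end, Mmp7 and Mmp20 had 0 counts in every library, which allows at most 0.0886 to 0.136 CPM per library (3 counts, covering counting error only).

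**Figure D1:**
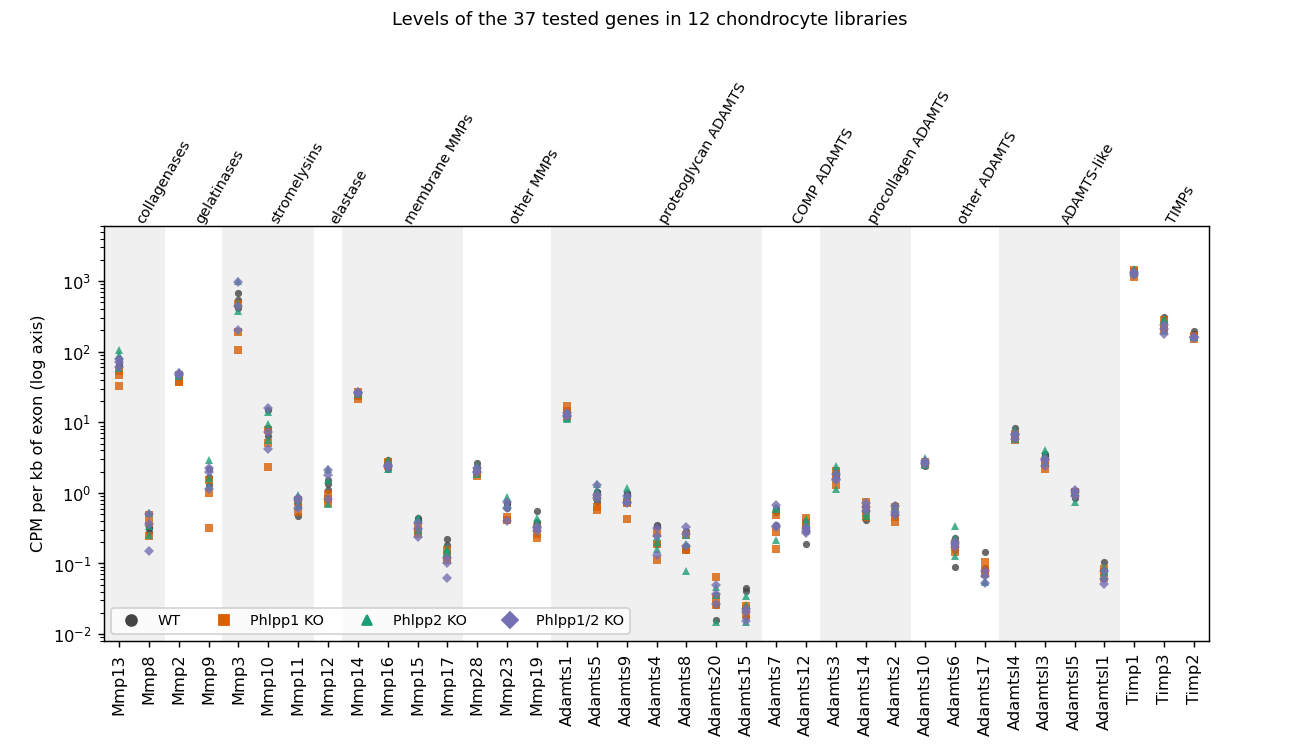
CPM per kilobase of exon (log axis) of the 37 tested members, grouped by role, with 1 point per library and colour and shape for genotype. Timp1 and Mmp3 reach the highest values, and the points of Mmp3, Mmp10 and Mmp9 are spread most widely among the members with a mean of at least 1 CPM.

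A run of 10 MMPs lies on chromosome 9, over 427 kb from 7272514 to 7699585 (mm10): Mmp13, Mmp12, Mmp1b, Mmp3, Mmp1a, Mmp10, Mmp8, Mmp27, Mmp20 and Mmp7. Neighbours in it differed widely in level (the map of the cluster). Mmp3 at 492 CPM per kb lies between Mmp1b at 0.125 and Mmp1a at 0.0107 CPM per kb, and Mmp10 follows at 8.46 CPM per kb. The stromelysins Mmp3 and Mmp10 and the collagenase Mmp13 were thus read at high or moderate level in a stretch in which Mmp7 and Mmp20 had no counts.

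**Figure D2:**
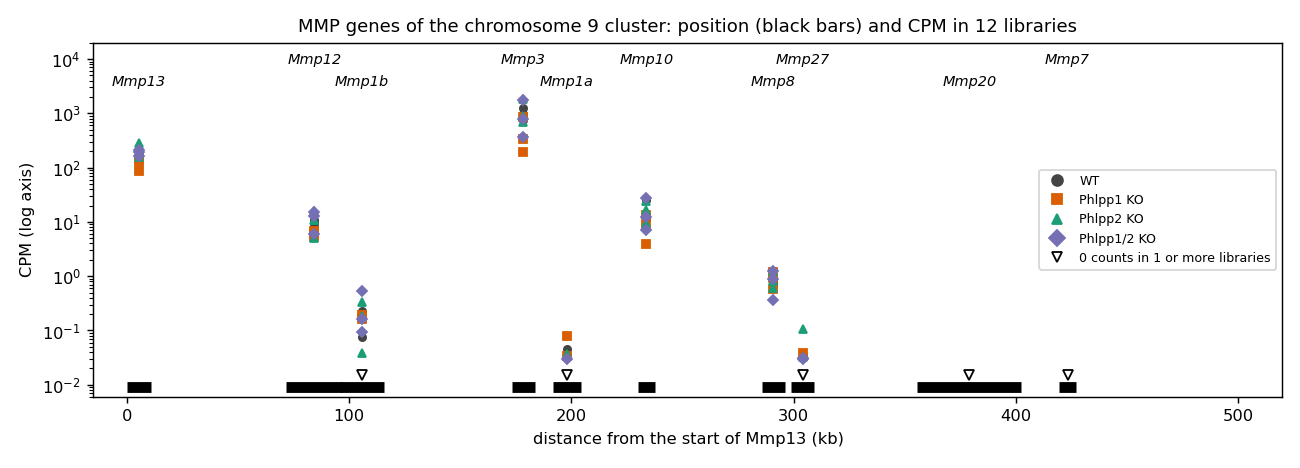
Position of the 10 clustered MMP genes as distance from the start of Mmp13 in kb (black bars) and their CPM in each library on a log axis, with 1 point per library. Open triangles mark genes with 0 counts in 1 or more libraries, and Mmp3 and Mmp13 stand above their neighbours in every library.

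The promoters of this cluster share a sequence that the symbol rule did not use, so 5 are printed, namely Mmp13, Mmp12, Mmp3 and Mmp10 as the cluster genes with the highest levels and Mmp8 as one without it. All are from RefSeq on mm10 (GRCm38), plus strand, and run from 130 bases before to 20 after the annotated start. The windows are chr9:7272384-7272533 for Mmp13, chr9:7347244-7347393 for Mmp12, chr9:7445692-7445841 for Mmp3, chr9:7502212-7502361 for Mmp10 and chr9:7558299-7558448 for Mmp8. For Mmp12, 1 of its 2 annotated starts is shown, chosen because its window holds the shared sequence. Capitals mark matches to TGANTCA, the letters bound by the AP-1 family of transcription factors (Fos and Jun proteins), and in Mmp13 also the first capitals, a match on the other strand to TGTGGT, the letters bound by RUNX factors.
Mmp13: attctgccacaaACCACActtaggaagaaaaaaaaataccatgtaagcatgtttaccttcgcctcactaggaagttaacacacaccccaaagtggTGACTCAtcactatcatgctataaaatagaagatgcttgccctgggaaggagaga
Mmp12: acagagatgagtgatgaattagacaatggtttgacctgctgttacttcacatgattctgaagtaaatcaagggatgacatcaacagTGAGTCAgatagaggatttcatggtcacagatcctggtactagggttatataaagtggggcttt
Mmp3: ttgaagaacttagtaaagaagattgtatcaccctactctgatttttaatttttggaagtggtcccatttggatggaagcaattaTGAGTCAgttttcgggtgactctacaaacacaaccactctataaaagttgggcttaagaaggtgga
Mmp10: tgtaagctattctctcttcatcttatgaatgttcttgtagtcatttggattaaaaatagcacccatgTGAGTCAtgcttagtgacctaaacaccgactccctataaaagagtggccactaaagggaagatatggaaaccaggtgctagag
Mmp8: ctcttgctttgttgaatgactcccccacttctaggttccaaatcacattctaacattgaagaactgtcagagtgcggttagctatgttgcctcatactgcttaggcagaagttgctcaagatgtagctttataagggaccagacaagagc

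TGANTCA was searched on both strands, on which it reads alike, in windows of 300 bases (250 before to 50 after the start). It was found in a window of 8 of the 10 cluster genes, the exceptions being Mmp8 and Mmp27, and in none of the 26 other members that have a promoter in the table. A gene counted here if any of its windows held a match. Mmp12 and Mmp7 each have another annotated start, whose window held no match. Counted by promoter, 8 of the 39 promoters of members held it, beside 7.81% of all 32851 promoters in the table. The first base of the match lay at position -35 from the start in Mmp13, -44 in Mmp12, -46 in Mmp3 and -63 in both Mmp10 and Mmp7. Mmp1a, Mmp1b and Mmp20, which were at or near 0 in these cells, held the letters too, at positions -73, -93 and -95. TGTGGT was found for 6 members, among them Mmp13, and in 16.8% of all promoters, and the NF-kB motif for 6 members and in 8.46%. The motifs were searched after the levels had been seen. Matches describe letters in a window and not a bound site. RefSeq promoters matched 36 of the 51 members; the others were Adamts4, Adamts5, Adamts6, Adamts7, Adamts8, Adamts10, Adamts15, Adamts16, Adamts19, Adamtsl1, Mmp2, Mmp9, Mmp16, Mmp17 and Mmp19.

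Comparisons between genotypes asked whether loss of either phosphatase changed any member. The test was the quasi-likelihood test of edgeR, with Benjamini-Hochberg adjusted p-values across the 16565 genes tested, and a gene is said to be called, to rise or to fall at an adjusted p under 0.05. None of the 37 members was called in any of 9 comparisons: the 6 pairs of genotypes, the average effect of each loss and the interaction of both losses. Beside this, 0.537% of all genes passed for Phlpp1 KO against WT, 0.121% for Phlpp2 KO against WT, 0.235% for Phlpp1/2 KO against WT, 0.151% for Phlpp1 KO against Phlpp2 KO, 0.0121% for Phlpp1/2 KO against Phlpp1 KO and 0.0724% for Phlpp1/2 KO against Phlpp2 KO. The shares were 0.592% for the average effect of Phlpp1 loss, 0.0906% for that of Phlpp2 loss and 0.0483% for the interaction. With shares this small, a count of 0 among 37 members lies near the background. DESeq2 called 2 members for Phlpp1 KO against WT, 1 for Phlpp1 KO against Phlpp2 KO, 1 for the average effect of Phlpp1 loss, 1 for the interaction and 0 in the other comparisons. In the same order it called 988, 172, 382 and 640 of all genes, where edgeR called 89, 25, 98 and 8. The edgeR shares above are thus no background for its member counts. Limma-voom called 0 members in all 9.

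At an unadjusted p under 0.05 the members were spread unevenly over the comparisons. For Phlpp1 KO against WT, 11 of 37 passed (29.7%, against 20.4% of all genes), of which 10 were lower (27%, against 9.54%) and 1, Adamts12, was higher. For Phlpp2 KO against WT 2 passed (5.41%, against 13.8%), and for Phlpp1/2 KO against WT 6 passed (16.2%, against 11.1%), all of them lower (6.09% of all genes were lower by this rule). For Phlpp1 KO against Phlpp2 KO 7 passed (18.9%, against 10.4%), all lower in Phlpp1 KO (5.61% of all genes). For Phlpp1/2 KO against Phlpp1 KO 5 passed (13.5%, against 7.9%) and against Phlpp2 KO 3 passed (8.11%, against 8.84%). The average effect of Phlpp1 loss gave 9 members, all lower (24.3%, against 14.4% in either direction and 8.36% lower), that of Phlpp2 loss 5 (13.5%, against 6.94%) and the interaction 1 (2.7%, against 14.5%). These comparisons share libraries and are not independent of each other. Groups did not overlap for 10 members in Phlpp1 KO against WT (27%, against 28.2% of all genes), 2 in Phlpp2 KO against WT (5.41%, against 19.1%) and 7 in Phlpp1/2 KO against WT (18.9%, against 18.9%). The counts were 4 for Phlpp1/2 KO against Phlpp1 KO (10.8%, against 13.2%), 3 against Phlpp2 KO (8.11%, against 12.4%) and 4 for Phlpp1 KO against Phlpp2 KO (10.8%, against 14.1%). For the average effects, 1 member separated by Phlpp1 status (2.7%, against 1.09%) and 0 by Phlpp2 status (against 0.32%). By that measure the members lay at or below the background in each pair of genotypes.

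**Figure D3:**
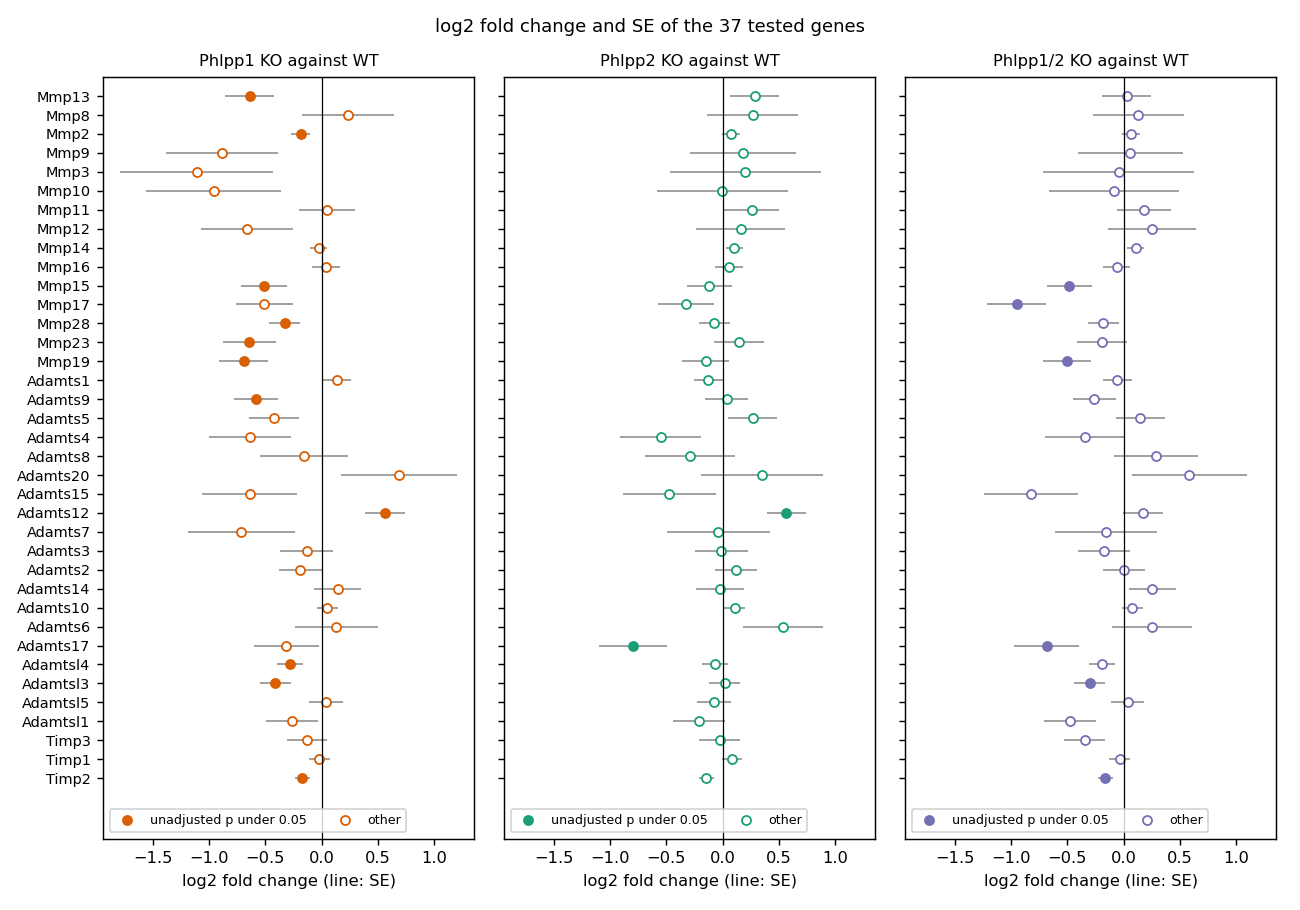
Log2 fold change of the 37 tested members for each knockout against WT, ordered by role, with lines for the SE. Filled points have an unadjusted p under 0.05, none passes after adjustment, and the filled points for Phlpp1 KO lie left of 0 except that of Adamts12 at 0.56.

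Mmp13, the main collagenase of hypertrophic cartilage (chr9:7272514-7283331, plus strand), cuts type II collagen. It stood at 176, 211 and 170 CPM in WT, 87.9, 126 and 144 CPM in Phlpp1 KO, 157, 280 and 241 CPM in Phlpp2 KO, and 210, 194 and 164 CPM in Phlpp1/2 KO. All 3 Phlpp1 KO libraries were below every library of the other 3 genotypes, which overlapped with each other. Between the single knockouts, the log2 fold change of Phlpp1 KO against Phlpp2 KO was -0.92 (SE 0.22, edgeR quasi-likelihood test, Benjamini-Hochberg adjusted p = 0.182), the smallest unadjusted p of a member in any comparison. Against WT it was -0.64 (SE 0.22, edgeR adjusted p = 0.147), and Phlpp1/2 KO lay above Phlpp1 KO by 0.67 (SE 0.22, edgeR adjusted p = 0.626). Without the 2 low-Xist libraries the first of these values was -0.74 (edgeR adjusted p = 0.486) and the second -0.44 (edgeR adjusted p = 0.343). DESeq2 called Mmp13 lower in Phlpp1 KO than in Phlpp2 KO (adjusted p = 0.00179) and than in WT (adjusted p = 0.0339), and without Phlpp2 KO 1, edgeR called the first of these too (adjusted p = 0.0331). Mmp8, the other collagenase that could be tested, stayed between 0.367 and 1.27 CPM.

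The gelatinases Mmp2 and Mmp9 cut denatured collagen. Mmp2 (chr8:92827291-92853420, plus strand) stood at 144, 155 and 164 CPM in WT, 126, 126 and 155 CPM in Phlpp1 KO, 164, 172 and 153 CPM in Phlpp2 KO, and 166, 161 and 158 CPM in Phlpp1/2 KO. Phlpp1 KO 1 and 2 were lower than all other libraries, and Phlpp1 KO 3 lay among the remaining genotypes. On the log2 scale Phlpp1 KO differed by -0.19 from WT (SE 0.08, edgeR adjusted p = 0.221) and by -0.26 from Phlpp2 KO (SE 0.08, edgeR adjusted p = 0.279), and Phlpp1/2 KO lay above Phlpp1 KO by 0.25 (SE 0.08, edgeR adjusted p = 0.626). Without the low-Xist libraries the first value was -0.11 (edgeR adjusted p = 0.567). Mmp9, which takes part in vascular invasion of the growth plate, stood at 6.02, 7.60 and 4.51 CPM in WT, 1.11, 3.48 and 5.33 CPM in Phlpp1 KO, 4.45, 10.4 and 5.71 CPM in Phlpp2 KO, and 7.89, 4.04 and 7.03 CPM in Phlpp1/2 KO. Its genotypes overlapped, and Phlpp1 KO 1, a low-Xist library, was below every other one. Its log2 fold change for Phlpp1 KO against WT was -0.89 (SE 0.50, edgeR adjusted p = 0.349), and -0.45 without the low-Xist libraries (edgeR adjusted p = 0.627). Neutrophils and osteoclasts are rich in Mmp9. The neutrophil markers summed to 0.0986 to 1.65 CPM. Of 6 osteoclast markers Ctsk stood at 98.5 to 125.6 CPM, Acp5 at 1.65 to 4.17 CPM and the other 4 under 1.6 CPM in every library. The part of these cells in the level of Mmp9 was not tested.

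Mmp3, the first of the stromelysins (chr9:7445822-7455975, plus strand), varied widely between libraries of the same genotype. It stood at 1235, 973 and 759 CPM in WT, 193, 338 and 846 CPM in Phlpp1 KO, 891, 1835 and 689 CPM in Phlpp2 KO, and 796, 361 and 1724 CPM in Phlpp1/2 KO. The highest library was 9.53 times the lowest. The means were 989 (SD 238), 459 (SD 343), 1138 (SD 612) and 960 (SD 696) CPM, and the log2 fold change of Phlpp1 KO against WT was -1.11 with an SE of 0.68 (edgeR adjusted p = 0.398). Leaving out libraries or changing the tool moved that value between -1.89 and -0.72, and adjusted p-values ran from 0.240 to 0.704. Among the tested members, Mmp3 had both the largest fold and the largest SE for Phlpp1 KO against WT in this fit. Without the low-Xist libraries its value was -0.72 (edgeR adjusted p = 0.627). A stretch of 284 bases of its transcript is 95.4% identical to Gm15242, so some of its reads may be shared between both.

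Mmp10, the second stromelysin (chr9:7502352-7510240, plus strand), followed Mmp3 from library to library. It stood at 25.6, 14.1 and 11.1 CPM in WT, 3.97, 8.87 and 13.3 CPM in Phlpp1 KO, 16.3, 24.4 and 9.62 CPM in Phlpp2 KO, and 12.6, 7.13 and 27.9 CPM in Phlpp1/2 KO. Within each of the 4 genotypes the 3 libraries had the same order for both genes. The log2 fold change of Mmp10 for Phlpp1 KO against WT was -0.96 (SE 0.60, edgeR adjusted p = 0.404), and the groups overlapped. It was -0.59 without the low-Xist libraries (edgeR adjusted p = 0.668). Mmp11, the third, stayed between 1.3 and 2.60 CPM. Mmp12, the macrophage elastase, stood between 5.10 and 15.7 CPM, with 5.22 to 6.93 CPM in Phlpp1 KO and 8.03 to 10.9 CPM in WT, and lay higher in Phlpp1/2 KO than in Phlpp1 KO by 0.91 (SE 0.40, edgeR adjusted p = 0.626). The edgeR fit of the WT and Phlpp1 KO libraries alone called Mmp12 lower in Phlpp1 KO. The macrophage markers summed to 10.4 to 12.7 CPM in Phlpp1 KO and 12.9 to 15 CPM in WT, but they did not move together. Cd68 was lower in Phlpp1 KO than in WT, at 5.12 to 7.13 against 8.14 to 9.73 CPM. Mrc1 was higher, at 2.168 to 2.546 against 1.584 to 1.988 CPM, and so was Adgre1, at 0.673 to 0.901 against 0.588 to 0.65 CPM. Csf1r, C1qa and Ptprc overlapped between these genotypes. The part of macrophages in the level of Mmp12 was not tested.

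**Figure D4:**
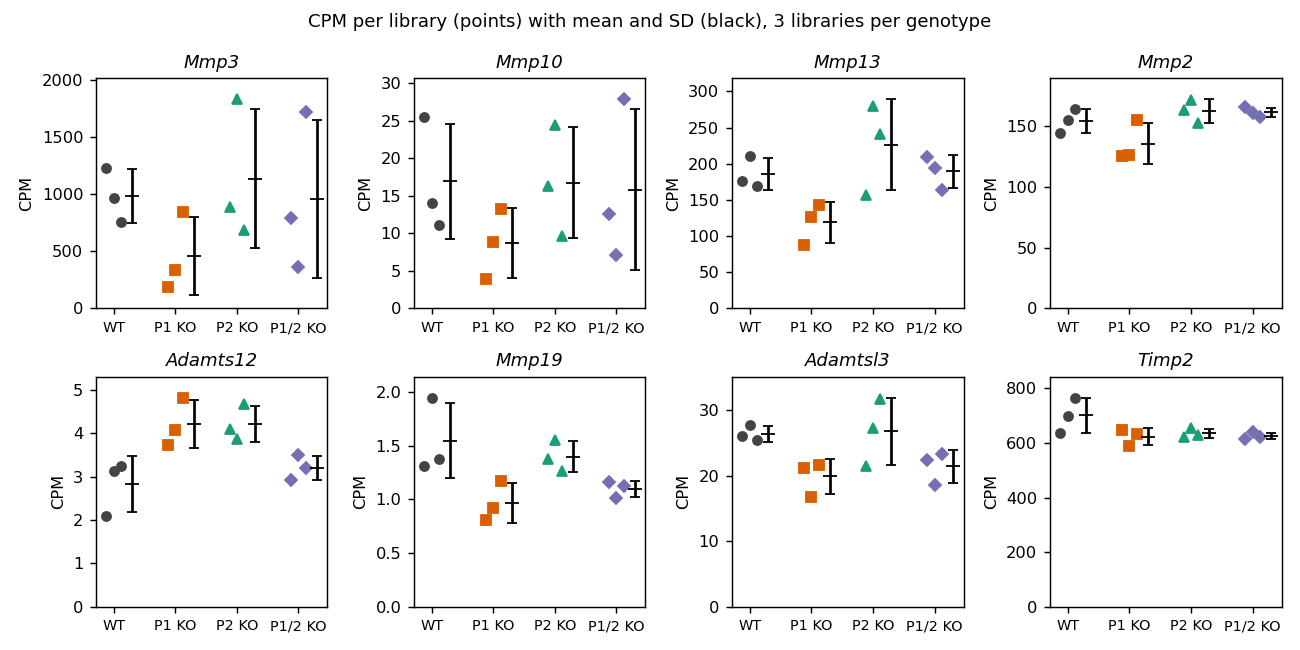
CPM of 8 members in each library (points) with the mean and SD of 3 libraries (black), for WT, Phlpp1 KO (P1 KO), Phlpp2 KO (P2 KO) and Phlpp1/2 KO (P1/2 KO), each axis starting at 0. Mmp3 and Mmp10 share their order of libraries within genotypes, and Mmp13 is below 150 CPM only in Phlpp1 KO.

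Among the membrane-anchored MMPs, Mmp14, which activates the Mmp2 precursor together with Timp2, was the most abundant and among the steadiest members. It stood at 144, 140 and 153 CPM in WT, 128, 140 and 161 CPM in Phlpp1 KO, 148, 158 and 163 CPM in Phlpp2 KO, and 160, 154 and 157 CPM in Phlpp1/2 KO. The highest library was 1.27 times the lowest, and the 3 Phlpp1/2 KO libraries were just above the 3 of WT. Mmp15 stood at 2.26, 2.38 and 2.26 CPM in WT, 1.58, 1.84 and 1.41 CPM in Phlpp1 KO, 1.63, 2.32 and 2.42 CPM in Phlpp2 KO, and 2.00, 1.65 and 1.3 CPM in Phlpp1/2 KO. The 3 WT libraries were above all 6 libraries without Phlpp1, with log2 fold changes of -0.51 for Phlpp1 KO (SE 0.20, edgeR adjusted p = 0.186) and -0.48 for Phlpp1/2 KO (SE 0.20, edgeR adjusted p = 0.396). Mmp17, which has a lipid anchor, had the smallest unadjusted p of the members for Phlpp1/2 KO against WT at a mean of 0.920 CPM over all libraries (log2 fold change -0.95, SE 0.26, edgeR adjusted p = 0.219). It rests on 13 to 41 counts per library. Mmp16 stayed between 18.6 and 25.3 CPM.

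Mmp19, an MMP outside these groups, stood at 1.31, 1.95 and 1.38 CPM in WT, 0.808, 0.920 and 1.18 CPM in Phlpp1 KO, 1.37, 1.55 and 1.27 CPM in Phlpp2 KO, and 1.16, 1.01 and 1.12 CPM in Phlpp1/2 KO. All 6 libraries without Phlpp1 were below all 6 with it, and no other tested member separated these sets, against 1.09% of all genes. The log2 fold change was -0.69 for Phlpp1 KO against WT (SE 0.22, edgeR adjusted p = 0.118), -0.50 for Phlpp1/2 KO against WT (SE 0.21, edgeR adjusted p = 0.396) and -0.52 for the average effect of Phlpp1 loss (SE 0.15, edgeR adjusted p = 0.150). Its exons overlap those of Tmem198b on the other strand over 22.3% of their length. The strand setting of the counting is not given in the sources used here, so reads of such partners cannot be told apart. Smaller overlaps of this kind touch Mmp28 (12% of its exons), Adamts8 (10.6%), Mmp11 (5.58%), Adamts4 (3.56%) and Adamts7 (1.94%). Mmp23 was lower in Phlpp1 KO than in WT by the unadjusted test, at 0.953 to 1.08 against 1.41 to 1.66 CPM (log2 fold change -0.64, SE 0.24, edgeR adjusted p = 0.154). Mmp28, epilysin, was 6.74 to 7.44 against 7.60 to 10.3 CPM (-0.33, SE 0.14, edgeR adjusted p = 0.201).

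Among the tested MMPs the values for Phlpp1 loss lay mostly below 0. For Phlpp1 KO against WT 12 of 15 had a log2 fold change below 0, with a median of -0.51 against -0.01 over all genes. Against Phlpp2 KO all 15 were below 0, with a median of -0.39 against 0.00. For Phlpp1/2 KO against Phlpp2 KO 13 of 15 were below 0 (median -0.12), for the average effect of Phlpp1 loss 14 of 15 (median -0.44) and for Phlpp1/2 KO against WT 8 of 15 (median -0.04). Over all 37 tested members, 10 were above 0 for Phlpp1 KO against WT (27%, against 47.7% of all genes), 6 for Phlpp1 KO against Phlpp2 KO (16.2%, against 50.2%) and 16 for Phlpp1/2 KO against WT (43.2%, against 49.6%). These counts are a description of genes that passed the filter and that partly vary together, and they were made after seeing the data. Over the alternative fits the counts of MMPs below 0 ran from 11 to 13 for Phlpp1 KO against WT, from 13 to 15 for Phlpp1 KO against Phlpp2 KO and from 12 to 15 for the average effect of Phlpp1 loss.

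Among the ADAMTS proteases that cut proteoglycans, Adamts1 stood at 62.2, 71.1 and 76.4 CPM in WT, 91.5, 62.4 and 76.5 CPM in Phlpp1 KO, 61.0, 71.5 and 59.8 CPM in Phlpp2 KO, and 64.7, 72.7 and 64.5 CPM in Phlpp1/2 KO, with overlap throughout. Adamts5, the main aggrecanase of mouse cartilage, stood at 7.92, 11 and 11 CPM in WT, 6.23, 6.74 and 9.52 CPM in Phlpp1 KO, 14.6, 12 and 9.51 CPM in Phlpp2 KO, and 9.95, 9.15 and 14.1 CPM in Phlpp1/2 KO. Phlpp1 KO 1 and 2 were below all other libraries. Phlpp1 KO differed by -0.42 on the log2 scale from WT (SE 0.22, edgeR adjusted p = 0.315) and by -0.69 from Phlpp2 KO (SE 0.22, edgeR adjusted p = 0.297), and groups overlapped in both. Without the low-Xist libraries these values were -0.28 (edgeR adjusted p = 0.616) and -0.57 (edgeR adjusted p = 0.594).

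Adamts4, the other aggrecanase, stood at 1.67, 1.66 and 0.918 CPM in WT, 0.538, 0.920 and 1.29 CPM in Phlpp1 KO, 1.16, 0.959 and 0.767 CPM in Phlpp2 KO, and 0.644, 1.16 and 1.51 CPM in Phlpp1/2 KO, with overlap throughout. Its log2 fold change for Phlpp1 KO against WT was -0.64 with an SE of 0.36 (edgeR adjusted p = 0.350). Adamts9, a versican-cutting protease, stood at 13.3 to 14.9 CPM in WT, 6.51 to 11.2 CPM in Phlpp1 KO, 12 to 17.9 CPM in Phlpp2 KO and 10.9 to 13.6 CPM in Phlpp1/2 KO. Phlpp1 KO did not overlap WT or Phlpp2 KO, with log2 fold changes of -0.58 (SE 0.20, edgeR adjusted p = 0.136) and -0.62 (SE 0.20, edgeR adjusted p = 0.294). DESeq2 called the first of these (adjusted p = 0.0499). Its exons overlap A730049H05Rik on the other strand over 9.18% of their length. Adamts8, Adamts15 and Adamts20 lay under 1.6 CPM in every library, with no unadjusted p under 0.05.

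Adamts12, which cuts COMP, lies at chr15:11064790-11349231 (plus strand). It stood at 2.08, 3.14 and 3.25 CPM in WT, 3.74, 4.07 and 4.82 CPM in Phlpp1 KO, 4.09, 3.87 and 4.68 CPM in Phlpp2 KO, and 2.93, 3.49 and 3.19 CPM in Phlpp1/2 KO. Both single knockouts lay above WT and above Phlpp1/2 KO in every library, and WT overlapped Phlpp1/2 KO. Against WT the log2 fold change was 0.56 for Phlpp1 KO (SE 0.18, edgeR adjusted p = 0.116) and 0.57 for Phlpp2 KO (SE 0.18, edgeR adjusted p = 0.222), and both comparisons share the WT libraries. Phlpp1/2 KO lay below Phlpp1 KO (log2 fold change -0.39, SE 0.17, edgeR adjusted p = 0.626) and below Phlpp2 KO (-0.39, SE 0.17, edgeR adjusted p = 0.552). The interaction of both losses was -0.96 on the log2 scale (SE 0.24, edgeR adjusted p = 0.151), and it passed in DESeq2 (adjusted p = 0.0193). It was as large without the low-Xist libraries (edgeR adjusted p = 0.366). The values rest on 46 to 124 counts per library. Adamts7, the other COMP-cutting protease, stood between 1.01 and 4.19 CPM with overlap between all genotypes.

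The procollagen N-proteinases Adamts2, Adamts3 and Adamts14, which trim fibrillar procollagens, had no unadjusted p under 0.05. Adamts2 stood at 4.66, 6.27 and 4.63 CPM in WT, 3.63, 4.24 and 5.88 CPM in Phlpp1 KO, 6.15, 5.43 and 5.37 CPM in Phlpp2 KO, and 4.51, 6.06 and 5.08 CPM in Phlpp1/2 KO. Adamts2 overlapped between all genotypes. Adamts10, a protease of fibrillin microfibrils, stayed between 19.7 and 25.5 CPM. Adamts6 stood at 1.22, 0.685 and 1.80 CPM in WT, 1.38, 1.15 and 1.53 CPM in Phlpp1 KO, 2.64, 0.993 and 1.76 CPM in Phlpp2 KO, and 1.48, 1.32 and 1.59 CPM in Phlpp1/2 KO, with overlap throughout. Adamts17 was lower in Phlpp2 KO than in WT without overlap (means 0.473 and 0.825 CPM, log2 fold change -0.79, SE 0.30, edgeR adjusted p = 0.275), on 11 to 30 counts per library.

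ADAMTS-like proteins share the ancillary domains of the family, lack the protease domain and bind microfibrils. Adamtsl3 stood at 26.1, 27.8 and 25.5 CPM in WT, 21.3, 16.8 and 21.7 CPM in Phlpp1 KO, 21.5, 27.2 and 31.7 CPM in Phlpp2 KO, and 22.4, 18.6 and 23.4 CPM in Phlpp1/2 KO. Every library without Phlpp1 was below every WT library. The average effect of Phlpp1 loss was -0.36 on the log2 scale (SE 0.10, edgeR adjusted p = 0.129), the smallest unadjusted p of a member for that effect. It was called by DESeq2 (adjusted p = 0.0297) and by edgeR without Phlpp2 KO 1 (adjusted p = 0.0167). Adamtsl4 was 23.8 to 28.6 CPM in Phlpp1 KO against 29.2 to 34.3 CPM in WT (log2 fold change -0.28, SE 0.12, edgeR adjusted p = 0.192), and Adamtsl5 stayed between 3.53 and 5.2 CPM.

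Of the inhibitors, Timp1 (chrX:20870166-20874735, plus strand) stood at 1114, 1284 and 1140 CPM in WT, 1021, 1262 and 1210 CPM in Phlpp1 KO, 1141, 1267 and 1340 CPM in Phlpp2 KO, and 1214, 1084 and 1154 CPM in Phlpp1/2 KO, with overlap between all genotypes. Timp2 (chr11:118301069-118355740, minus strand) stood at 638, 701 and 766 CPM in WT, 648, 590 and 633 CPM in Phlpp1 KO, 621, 655 and 630 CPM in Phlpp2 KO, and 616, 639 and 624 CPM in Phlpp1/2 KO. WT 2 and 3 were above all 9 knockout libraries, and WT 1 lay among them. Timp2 differed from WT by -0.17 on the log2 scale in Phlpp1 KO (SE 0.07, edgeR adjusted p = 0.176) and by -0.16 in Phlpp1/2 KO (SE 0.07, edgeR adjusted p = 0.385), each against the same WT libraries.

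Timp3 (chr10:86300372-86349506, plus strand) stood at 1721, 2147 and 2527 CPM in WT, 2263, 1670 and 1913 CPM in Phlpp1 KO, 2259, 1624 and 2394 CPM in Phlpp2 KO, and 1694, 1916 and 1429 CPM in Phlpp1/2 KO, with overlap between all genotypes. Its exons overlap those of Syn3 on the other strand over 21.3% of their length. Timp4 was barely present and untested, at 0.0453, 0.108 and 0.191 CPM in WT, 0.101, 0.0329 and 0 CPM in Phlpp1 KO, 0, 0.0331 and 0.0767 CPM in Phlpp2 KO, and 0.483, 0.337 and 0.266 CPM in Phlpp1/2 KO. Its highest library held 15 counts. The 3 Phlpp1/2 KO libraries were above the other 9, which was seen after the values were known.

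The balance of MMP to TIMP transcripts, as a ratio of summed CPM, followed Mmp3. It was 0.512, 0.375 and 0.296 in WT, 0.149, 0.223 and 0.364 in Phlpp1 KO, 0.357, 0.714 and 0.300 in Phlpp2 KO, and 0.399, 0.253 and 0.714 in Phlpp1/2 KO. Mmp3 made up 32.9% to 75.3% of the MMP CPM of a library. Without Mmp3 the ratio ran only from 0.1 to 0.197, and the ratio of ADAMTS to TIMP CPM from 0.0313 to 0.0444. Sums of CPM favour long transcripts and do not compare molecules.

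The variation of Mmp3 between libraries was shared by a set of other genes. Over the 12 libraries, Pearson's r of log2 CPM with Mmp3 was 0.96 for Mmp10, 0.87 for Mmp9, 0.84 for Adamts7, 0.75 for Adamts5, 0.72 for Mmp19 and 0.66 for Mmp13, and -0.40 for Timp3 (the plot of pairs with Mmp3). After the mean of each genotype was removed, r was 0.95 for Mmp10, 0.80 for Mmp9, 0.37 for Mmp13 and -0.73 for Timp3. Of the 36 other tested members, Mmp10 alone kept the order of libraries of Mmp3 within all 4 genotypes, as did 0.392% of all tested genes. These values describe points that share a library, its scaling and its cell make-up, and Mmp3 was chosen for them after its spread was seen.

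**Figure D5:**
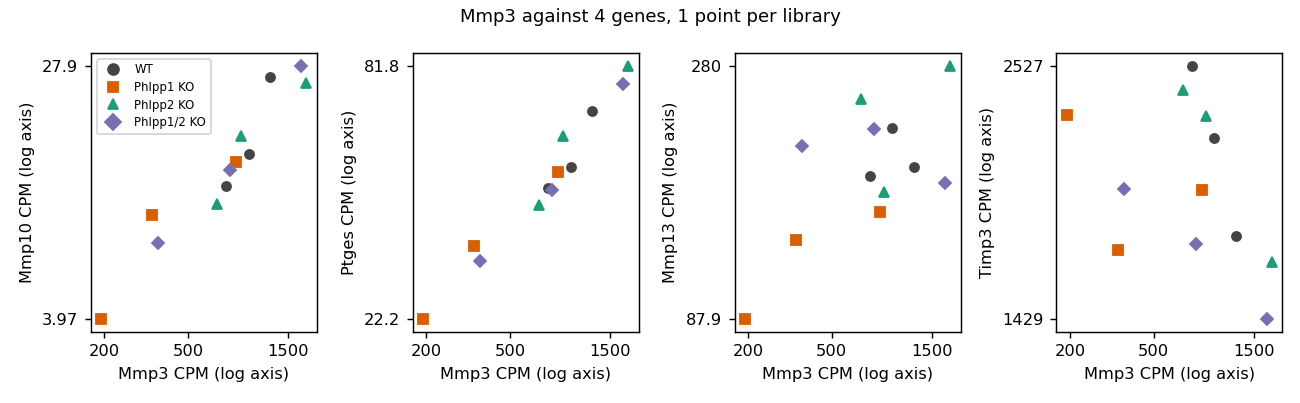
CPM of Mmp10, Ptges, Mmp13 and Timp3 against CPM of Mmp3 on log axes, with 1 point per library and colour and shape for genotype. Mmp10 and Ptges rise with Mmp3 within every genotype, while Mmp13 follows less closely (r = 0.66) and Timp3 runs the other way (r = -0.40).

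Among 11931 named genes with a mean of at least 1 CPM, those nearest to Mmp3 by r were Ptges at 0.98, Tgm1, C3, Lrrc8d, Ggta1 and Lcn2 at 0.96, Mmp10 and then Nfkbiz at 0.96. Ptges makes prostaglandin E, C3 is a complement protein, Lcn2 an iron-carrier protein of the acute phase and Nfkbiz an inhibitor-like partner of NF-kB. Ptges stood at 64.8, 48.5 and 43.7 CPM in WT, 22.2, 32.3 and 47.4 CPM in Phlpp1 KO, 57, 81.8 and 39.98 CPM in Phlpp2 KO, and 43.3, 29.9 and 74.5 CPM in Phlpp1/2 KO. An r above 0.9 was reached by 46 genes (0.386%). The sums of some marker lists moved with Mmp3 as well: r was 0.82 for the macrophage markers, which summed to 10.4 CPM in Phlpp1 KO 1 and 16.2 CPM in Phlpp1/2 KO 3, and -0.65 for the chondrocyte markers, at 47876 and 26648 CPM in these libraries. It was 0.71 for the superficial zone and fibroblast markers, 0.65 for the endothelial and 0.50 for the neutrophil markers. Spearman's rho, the correlation of ranks, was only 0.37 for the superficial zone and fibroblast markers. For the macrophage, chondrocyte, endothelial and neutrophil markers rho was 0.80, -0.72, 0.57 and 0.63. Single genes weighed heavily in these sums. In Phlpp1 KO 1 and Phlpp1/2 KO 3, Col2a1 gave 38174 and 20753 CPM of the chondrocyte sum. In the same libraries Cd68 gave 5.12 and 7.68 CPM of the macrophage sum. The part of these markers in the levels of Mmp3 was not tested. For the total counts of the libraries r was -0.24.

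Of the genes around these enzymes, 26 tested genes for activation, clearance and other inhibition had no call in any of the 9 comparisons by edgeR. For Phlpp1 KO against WT 2 of them were higher and 9 lower at an unadjusted p under 0.05, beside 20.4% of all genes in either direction and 9.54% lower. Adam12, a membrane-bound relative of the ADAMTS proteases, had the smallest adjusted p of these, at 139.7 to 182.4 against 74.6 to 95.9 CPM (log2 fold change 0.91, SE 0.26, edgeR adjusted p = 0.110), and DESeq2 called it (adjusted p = 0.0414). Furin, which cuts the propeptide of membrane-type MMPs, was 134 CPM in Phlpp1/2 KO against 159 CPM in WT (-0.25, SE 0.06, edgeR adjusted p = 0.181).

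Of 17 transcription factors known to act on Mmp or Adamts genes, none was called by edgeR for Phlpp1 KO or Phlpp2 KO against WT (3 higher and 4 lower, and 1 higher and 1 lower, at an unadjusted p under 0.05, beside 20.4% and 13.8% of all genes in either direction), and 1, Fos, a part of AP-1, rose in Phlpp1/2 KO against WT (log2 fold change 0.57, SE 0.10, edgeR adjusted p = 0.0390). That call was lost without any of WT 1, 2 and 3 or Phlpp1/2 KO 1 and 2 (edgeR adjusted p from 0.0608 to 0.183), without both low-Xist libraries (0.110), with the replicate number as a block (0.0796) and with only the compared libraries (0.0664). Fosb, also a part of AP-1, was higher without Phlpp1 in every library: it stood at 3.85, 3.39 and 3.40 CPM in WT, 4.37, 4.73 and 4.54 CPM in Phlpp1 KO, 2.71, 3.01 and 2.72 CPM in Phlpp2 KO, and 5.28, 5.23 and 4.25 CPM in Phlpp1/2 KO. The average effect of Phlpp1 loss on Fosb was 0.58 on the log2 scale (SE 0.09, edgeR adjusted p = 0.0132; without the low-Xist libraries 0.0832), and Phlpp1/2 KO lay above Phlpp2 KO by 0.80 (SE 0.13, edgeR adjusted p = 0.0469). That second call was lost on leaving out any of Phlpp2 KO 1, 2 and 3 or Phlpp1/2 KO 1 and 2 (edgeR adjusted p from 0.0984 to 0.370), without both low-Xist libraries (0.584), with only the compared libraries (0.525), with the replicate number as a block (0.0781) and with limma-voom (0.0580). Fos stood at 13.2, 12.6 and 15 CPM in WT, 17.8, 19.2 and 17.8 CPM in Phlpp1 KO, 16.8, 16.5 and 19.1 CPM in Phlpp2 KO and 18.9, 23 and 18.8 CPM in Phlpp1/2 KO, so that every knockout library was above WT. In Phlpp1 KO it did not pass (log2 fold change 0.43, SE 0.10, edgeR adjusted p = 0.0807), though DESeq2 called it (adjusted p = 0.0110). Epas1, a hypoxia-inducible factor, was 35.8, 35.8 and 48.5 CPM in Phlpp1 KO against 60.2, 58.2 and 59.0 CPM in WT (-0.56, SE 0.12, edgeR adjusted p = 0.0633), and it was called by DESeq2 (adjusted p = 0.00245).

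Of 18 matrix substrates, Tnc, the glycoprotein tenascin-C, was the only one called. It stood at 345, 342 and 429 CPM in WT, 533, 541 and 574 CPM in Phlpp1 KO, 441, 382 and 402 CPM in Phlpp2 KO, and 540, 555 and 544 CPM in Phlpp1/2 KO. Every library without Phlpp1 was above every library with it, and the average effect of Phlpp1 loss was 0.49 on the log2 scale (SE 0.06, edgeR adjusted p = 0.00222). The log2 fold change for Phlpp1 KO against WT was 0.56 (SE 0.08, edgeR adjusted p = 0.0116), and its adjusted p rose to 0.0781 without WT 2 and to 0.0542 without the low-Xist libraries. Tnc was also called for Phlpp1/2 KO against WT (log2 fold change 0.55, edgeR adjusted p = 0.0130). That call was lost without the low-Xist libraries (edgeR adjusted p = 0.0719). It was also lost without any of WT 1, WT 2, Phlpp1/2 KO 1 and Phlpp1/2 KO 2 (edgeR adjusted p from 0.0535 to 0.0737). The substrates of the main enzymes described above had no call: Col2a1, cut by Mmp13, stood between 20753 and 40259 CPM, and Acan, cut by the aggrecanases, between 2993 and 4924 CPM over the 12 libraries.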

How the data were processed

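The deposited table holds raw read counts per gene for 12 libraries, 4 genotypes with 3 libraries each, made by the authors. Per the submitters' processing notes, bcl2fastq 2.17, STAR 2.5.2b, the mm10 build and featureCounts of Subread 1.5.2 were used. The library kit was NEBNext Ultra II per the labels' protocols. Strand setting, annotation release and treatment of multi-mapping reads were not given in the sources used here. Library totals ran from 21706337 to 33115345 counts, which limits precision for members near 1 CPM, and 174 genes without a symbol held 0.00419% of counts.

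Everything else was computed here in R 4.3.3. Genes were filtered by edgeR 4.0.16 (filterByExpr by genotype), leaving 16565, and scaled by TMM. A single quasi-likelihood fit of all 12 libraries (8 residual degrees of freedom, common biological coefficient of variation 0.105) gave 9 comparisons, with Benjamini-Hochberg adjustment over all tested genes and a threshold of 0.05. CPM use the TMM-scaled library size, and SEs were derived from each log2 fold change and its F statistic. Levels per kilobase use exon lengths of the GENCODE mm10 annotation. The pipeline was tested on simulated data. Correlations with Mmp3 use log2 CPM with a prior count of 0.5.

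By rule, values in every library were given for any called member, for Mmp2, Mmp3, Mmp9, Mmp13, Mmp14, Mmp19, Adamts1, Adamts2, Adamts4, Adamts5, Adamts12 and the TIMPs, and for the 3 members with the smallest p in each comparison with WT at a mean of at least 1 CPM. From each list of other genes the rule took called genes and up to 4 with the smallest adjusted p. Mmp10, Mmp12, Mmp17, Mmp23, Mmp28, Adamts9, Adamts17, Adamtsl4 and the substrates Col2a1 and Acan were singled out after their values were seen. The members and the lists of other genes were chosen with earlier results of these data known. Alternatives were DESeq2 1.42.0, limma 3.58.1 with voom, DESeq2's size factors, no filter, the replicate number as a block, only the compared libraries, leaving out each library, and leaving out both low-Xist libraries. Transcript copies were searched with BLAST+ 2.17.0, and promoters came from RefSeq.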

Additional observations from a re-analysis of the deposited data

Results flagged for a closer look

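Adamts12 was singled out because its response to each loss ran in opposite directions on the 2 backgrounds of the other gene. With Phlpp1 present, every Phlpp2 KO library was above every WT library, and with Phlpp1 absent, every Phlpp1/2 KO library was below every Phlpp1 KO library. Likewise, Phlpp1 loss went with higher values in the presence of Phlpp2 and lower values in its absence, without overlap. The difference between the responses, the same number for both losses, was -0.956 on the log2 scale (SE 0.24) and did not pass after adjustment (edgeR adjusted p = 0.151). Adamts12 was 1 of 37 tested members with such a pattern, which was found in 1.26% of all tested genes for Phlpp2 loss and 0.857% for Phlpp1 loss.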

How the results depend on the processing

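Refits covered 56 pairs of a member and a comparison, taken for an unadjusted p under 0.05 in the main fit or singled out by name. Of 801 refits, 791 kept direction and side of the threshold, 10 passed it and 0 reversed. No call could be lost, since the main fit called no member, and pairs taken for a low p are less likely to reverse. From 0 members called, DESeq2 called 2 for Phlpp1 KO against WT (Mmp13 and Adamts9), 1 for Phlpp1 KO against Phlpp2 KO (Mmp13), 1 for the average effect of Phlpp1 loss (Adamtsl3) and 1 for the interaction (Adamts12). A fit of only the compared libraries called 2 for Phlpp1 KO against WT (Adamtsl3 and Mmp12), of which Mmp12 lay outside the 56 pairs. Leaving out 1 library gave 0 to 2 members for Phlpp1 KO against Phlpp2 KO and 0 to 1 for the average effect of Phlpp1 loss, each time through Phlpp2 KO 1, and 0 elsewhere.

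Counts over all genes moved as well. They are out of 16565 genes in the main fit against 37 members, so the sizes of the 2 kinds of count do not compare directly. For Phlpp1 KO against WT 89 became 988 with DESeq2, 461 without a filter, 1163 with only the compared libraries, 18 without both low-Xist libraries and 16 to 57 with 1 library left out. For Phlpp2 KO against WT 20 became 317 with DESeq2, 13 with limma-voom, 110 without a filter and 9 to 22 with 1 left out. For Phlpp1/2 KO against WT 39 became 160, 102 without a filter and 18 to 34. For Phlpp1/2 KO against Phlpp1 KO 2 became 20 with DESeq2, 14 without a filter, 1 with only the compared libraries and 2 to 4. Against Phlpp2 KO 12 became 39, 32 without a filter, 3 with only the compared libraries, 3 without the low-Xist libraries and 4 to 132, the highest without Phlpp1/2 KO 3. For Phlpp1 KO against Phlpp2 KO 25 became 172, 119 without a filter, 11 without the low-Xist libraries and 8 to 207. The average effect of Phlpp1 loss went from 98 to 382, 274 without a filter, 28 without the low-Xist libraries and 38 to 568. Both of these were highest without Phlpp2 KO 1. The average effect of Phlpp2 loss went from 15 to 57, 40 without a filter and 10 to 20. The interaction went from 8 to 640, 183 without a filter, 4 without the low-Xist libraries and 5 to 1196, the highest without Phlpp1/2 KO 3. The cause was not tested.

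Whether the replicate numbers pair the samples was not settled. Deviations correlated over 0.1 in 4 of 18 pairs with the same number (r from -0.138 to 0.276). Among pairs with different numbers this held for 5 of 36 (r from -0.261 to 0.185). With the replicate number as a block, 245 genes were called for Phlpp1 KO against WT, 84 for Phlpp2 KO against WT, 15 for Phlpp1 KO against Phlpp2 KO, 51 for the average effect of Phlpp1 loss and 308 for the interaction, and 1 member, Adamts12, for the interaction (log2 -0.97, edgeR adjusted p = 0.0495). The counts of MMPs below 0 and the refits of genes outside the family were added after seeing the data. With 3 libraries per genotype and 24 to 54 counts for Mmp19, 13 to 41 for Mmp17 and 11 to 30 for Adamts17, changes of low members were poorly resolved.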
